A study of Mus musculus with 16 samples.

Results

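The measurements concern 10 chemokine genes of bone marrow-derived macrophages, namely Ccl3, Ccl4, Ccl5, Ccl6, Ccl9, Ccl22, Cxcl2, Cxcl10, Cxcl16 and Pf4. They were taken as every probe of the array table whose platform annotation carries the symbol of a listed gene, which gave 11 probes among the 25697 probes and 16593 named genes of the table. Ccl4 had 2 probes and each other gene had 1. Marrow cells were turned into macrophages by recombinant macrophage colony stimulating factor, and their total RNA was measured on 16 single-colour Illumina bead arrays. The wild-type label stands for C57BL6 mice of the genotype Ndst1f/fLysMCre-, and the Ndst1-deficient label for Ndst1f/fLysMCre+ mice. Both carry the floxed alleles of Ndst1, an enzyme that sulfates heparan sulfate chains, and the Cre recombinase is driven by the lysozyme M gene, which is active in myeloid cells. The cells came from 2 mice of each genotype, 12 weeks old, and each mouse gave duplicate arrays without and with 50 µg/ml of aggregated LDL (agLDL) for 24 hours, a lipoprotein load that turns macrophages into foam cells. An array number of the form mouse.duplicate (1.1, 1.2, 2.1 or 2.2) is used below, and each number occurs once in each of the 4 groups. Mice that share a number across genotypes are different animals, and the labels do not say whether duplicates were separate cultures.

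Chemokines are small secreted proteins that direct the movement of leukocytes through G protein-coupled receptors, and they are held on cell surfaces and matrix by sulfated glycosaminoglycans such as heparan sulfate. The CC group draws mainly monocytes, T cells and other mononuclear cells. The CXC group holds neutrophil attractants, such as Cxcl2, and ligands of lymphocyte receptors, such as Cxcl10 and Cxcl16. In macrophages many of these genes are induced through NF-kB after Toll-like receptor signalling, and Cxcl10 and Ccl5 also through interferons.

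No chemokine of the set passed the test for agLDL or for the genotype label, while of the 9 that could be tested 4 passed it for the mouse number and 7 for the duplicate number, against 30.9% and 46% of all tested probes. Ccl5 was 11.2-fold lower in cells of the mice numbered 2 than in those of the mice numbered 1. The size of that fold depends on the background correction, at -3.49 log2 units with it and -2.66 without it. Cxcl10 was 3.14-fold lower on arrays of duplicate number 2, whereas Ccl3 and Ccl4 were 1.95-fold and 1.83-fold higher there. Cxcl2 was also brighter on every array of duplicate number 2, but it lay near background and was detected on only 3 of the 8 arrays of duplicate number 1. Ccl22 was not detected on any array, and Ccl9 passed no test.

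RefSeq promoter windows (build GRCm38.p6) were held for 7 of the 10 genes, that is, all but Ccl4, Ccl5 and Cxcl16. The 250 bases before the annotated start are shown for Ccl3, Cxcl2 and Cxcl10, the genes with a window whose arrays of duplicate number 1 and 2 did not overlap. Capitals mark matches, on either strand, to the letters GGNNNTTCC (an NF-kB-like motif) or GAAANNGAA (an interferon response-like motif). The Ccl3 sequence lies on the minus strand at chr11:83649379-83649628, the Cxcl2 sequence on the plus strand at chr5:90903649-90903898, and the Cxcl10 sequence on the minus strand at chr5:92348890-92349139.
Ccl3: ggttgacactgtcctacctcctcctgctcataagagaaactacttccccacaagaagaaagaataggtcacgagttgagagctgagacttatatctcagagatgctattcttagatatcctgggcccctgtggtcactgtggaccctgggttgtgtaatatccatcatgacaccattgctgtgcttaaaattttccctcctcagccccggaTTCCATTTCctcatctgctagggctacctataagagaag
Cxcl2: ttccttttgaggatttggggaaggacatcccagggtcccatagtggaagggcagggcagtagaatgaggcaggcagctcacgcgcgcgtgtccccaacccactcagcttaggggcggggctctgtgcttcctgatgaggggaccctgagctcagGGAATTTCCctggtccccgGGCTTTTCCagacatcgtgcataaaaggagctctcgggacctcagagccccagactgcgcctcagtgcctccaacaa
Cxcl10: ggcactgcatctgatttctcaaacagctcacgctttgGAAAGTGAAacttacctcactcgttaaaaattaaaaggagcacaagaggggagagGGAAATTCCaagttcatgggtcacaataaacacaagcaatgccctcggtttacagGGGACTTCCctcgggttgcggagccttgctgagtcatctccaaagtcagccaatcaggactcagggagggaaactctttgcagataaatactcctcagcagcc
Cxcl2 and Cxcl10, which differed in opposite directions between duplicate numbers, each held NF-kB-like matches at 2 places, starting 96 and 77 bases before the start in Cxcl2 and 158 and 103 bases before it in Cxcl10. Cxcl10 also held an interferon response-like match that starts 213 bases before the start. Ccl3 held only an interferon response-like match, on the opposite strand, 39 bases before the start. Of the 4 windows that are not shown, Ccl9 had an NF-kB-like match 35 bases before the start on the opposite strand, and Ccl6, Ccl22 and Pf4 had neither motif. Over the 32851 windows of 300 bases in the RefSeq table, 18.5% held the NF-kB-like letters, 8.56% the interferon response-like letters and 1.41% both. These matches describe the letters of the window and were not measured as bound sites.

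Raw bead intensities had array medians of 148 to 161, and 9241 to 10115 probes per array were detected, that is, brighter than all but 1% of the negative-control beads. The 16 arrays filled 2 slides, and each genotype label had a slide of its own, so slide and genotype cannot be told apart. Within each slide an array number and a treatment always took the same position, so position cannot be told apart from number and treatment. Of the macrophage markers, 6 of 6 on the platform (Adgre1, Cd14, Fcgr1, Itgam, Lyz2 and Mertk) were detected on all arrays. No T or NK cell marker (0 of 9) and no mast cell or basophil marker (0 of 5) was detected on any array. Summed raw intensity of the stromal markers was 2963 to 4201 on arrays of mouse number 1 and 1523 to 1850 on those of mouse number 2. Acta2, Col1a1 and Sparc carried this signal, and Col1a2, Col3a1, Dcn and Pdgfra were detected on no array. The 7 neutrophil markers summed to 15398 to 21608 on the 1.1 arrays, 16872 to 20305 on 1.2, 21240 to 27070 on 2.1 and 19157 to 21999 on 2.2, and the 2.1 range met those of 1.1 and 2.2.

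For the tests, signals were background-corrected, quantile normalized and put on the log2 scale, and 10224 probes detected on at least 4 arrays were fitted with limma. A difference was called at a Benjamini-Hochberg adjusted p under 0.05 over all 10224 probes. Mouse-number and duplicate-number differences come from a fit to all 16 arrays with the group and the array number as terms. Their p-values measure the spread between arrays, and the mouse-number contrast rests on 2 animals of each number. Of all tested probes, 30.9% were called between mouse numbers (16.3% higher and 14.6% lower with number 2) and 46% between duplicate numbers (22.4% higher and 23.7% lower). Of the 9 tested chemokines, 4 were called between mouse numbers (1 higher, 3 lower) and 7 between duplicate numbers (4 higher, 3 lower). One of the 4, Cxcl2, passed the detection filter only through arrays of duplicate number 2, so its call there adds no support. The median difference over the 9 was 0.02 between mouse numbers and 0.15 between duplicate numbers, on the log2 scale, against 0.01 and -0.01 over all tested probes.

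Some cell type markers were called between the same numbers, as were 30.9% of all tested probes between mouse numbers and 46% between duplicate numbers. The marker counts below stand beside those shares, and the markers were not tested as sets. With duplicate number 2, 3 of 6 macrophage markers were lower, namely Adgre1 (-0.55 ± 0.06), Cd14 (-0.54 ± 0.07) and Itgam (-0.39 ± 0.11), and none was higher (limma, adjusted p of at most 0.012). The summed raw intensity of the 6 was 63636 to 67917 on the 1.1 arrays, 57348 to 60685 on 1.2, 69070 to 76634 on 2.1 and 60560 to 63561 on 2.2. Of the 7 tested neutrophil markers, Mpo (0.67) and Elane (0.45) were higher and Ltf (-0.28) lower with duplicate number 2. Cd79b, the 1 B cell marker detected, was lower (-0.81). The rise of Mpo and Elane was seen for mouse number 1 only. On 1.1, 1.2, 2.1 and 2.2 the mean was 6.58, 7.97, 7.14 and 7.09 for Mpo and 6.38, 7.28, 6.83 and 6.83 for Elane. Their interactions, -1.43 and -0.90, were not called (limma, adjusted p = 0.15 and 0.19). With mouse number 2, Fcgr1 was lower (-0.68 ± 0.07) and Adgre1 (0.22), Mertk (0.28) and Cd14 (0.42) were higher, as were the neutrophil markers S100a8 (0.29) and Ltf (0.33) and Batf3 (0.42), the 1 dendritic cell marker detected. The part of these markers in the chemokine differences that follow was not tested.

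Ccl3 (macrophage inflammatory protein 1 alpha) and Ccl4 (macrophage inflammatory protein 1 beta) draw monocytes and T cells to sites of inflammation, and their genes are neighbours on chromosome 11. Raw Ccl3 intensity on the 4 arrays of each number was 2318 to 2751 for 1.1, 4359 to 5773 for 1.2, 1412 to 1874 for 2.1 and 3020 to 3428 for 2.2. In the order wild-type untreated, wild-type with agLDL, Ndst1-deficient untreated and Ndst1-deficient with agLDL, the 1.2 arrays read 4359, 4868, 5299 and 5773, and the 2.1 arrays 1874, 1781, 1699 and 1412. The 4 numbers thus occupied separate ranges, with 1.2 highest and 2.1 lowest, whatever the genotype or treatment. The Ccl3 difference, number 2 minus number 1, was -0.63 ± 0.07 (SE) log2 units between mouse numbers (limma, adjusted p = 2.4e-05, lower in 8 of 8 pairs of arrays). With duplicate number 2 it was 0.96 ± 0.07 higher (adjusted p = 3.9e-07, 8 of 8 pairs), and the duplicate 1 and duplicate 2 arrays did not overlap.

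Raw Ccl4 intensity was 13288 to 16112 for 1.1, 19479 to 21940 for 1.2, 6757 to 8425 for 2.1 and 14979 to 18074 for 2.2. The order of the numbers was that of Ccl3, except that the 1.1 and 2.2 ranges met. Between mouse numbers the Ccl4 difference was -0.66 ± 0.06 (limma, adjusted p = 2.9e-06, 8 of 8 pairs), and between duplicate numbers 0.88 ± 0.06 (adjusted p = 1.7e-07, 8 of 8 pairs). The second Ccl4 probe, dimmer at 765 to 3908, gave -0.97 ± 0.08 and 1.22 ± 0.08, the same directions with larger sizes. Over the 16 arrays Ccl3 and Ccl4 had a Pearson correlation of 0.96, and of 0.40 after group and number means were removed, on arrays that share animals, slides and positions.

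Ccl5 (RANTES), which attracts T cells and monocytes, had the widest range of the set. On the 1.1 arrays its raw intensity was 2806 and 2387 for the wild-type label without and with agLDL, and 1362 and 2123 for the Ndst1-deficient label. The 1.2 arrays read 1717, 1585, 991 and 1554 in that order, the 2.1 arrays 375, 320, 255 and 301, and the 2.2 arrays 210, 223, 279 and 216. All 8 arrays of mouse number 1 lay above all 8 of mouse number 2, and 3.83% of the tested probes had mouse-number arrays that did not overlap, in one direction or the other. The difference was -3.49 ± 0.18 log2 units (95% interval -3.87 to -3.11, limma, adjusted p = 1.5e-08, 8 of 8 pairs), or 11.2-fold. It was -3.81 within the slide of the wild-type label and -3.17 within that of the Ndst1-deficient label, and -2.66 without background correction. The 2.2 arrays read 210 to 279, not far above the array medians of 148 to 161, so the size of the fold depends on that correction. With the duplicates averaged, so that each mouse gave a value per treatment, the difference was -3.49 ± 0.17 (limma, adjusted p = 4.2e-05). Each animal still enters that fit both untreated and with agLDL, and only 2 animals carry each number. Its p-value thus does not measure the spread between mice. Stromal marker sums were also lower on the arrays of mouse number 2, and their part in the Ccl5 difference was not tested. In bulk RNA, fewer cells that express a gene and less RNA per cell cannot be told apart.

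Duplicate number 2 had less Ccl5 than duplicate number 1, by -0.79 ± 0.18 (limma, adjusted p = 0.0026, 7 of 8 pairs). The exception was the untreated Ndst1-deficient mouse 2, whose 2.2 array read 279 against 255 on 2.1. Within the slide of the Ndst1-deficient label the duplicate-number difference was -0.55 and was not called (adjusted p = 0.16).

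Ccl6 and Ccl9 are CCR1 ligands of rodents, and Ccl9 is made constitutively by macrophages. Raw Ccl6 intensity ranged from 2205 to 4458 with a median of 3119. Ccl6 was 0.40 ± 0.08 higher with duplicate number 2 (limma, adjusted p = 0.00091, 7 of 8 pairs), with overlapping arrays, and differed by -0.10 ± 0.08 between mouse numbers (adjusted p = 0.36). Within the slide of the Ndst1-deficient label the duplicate-number difference of Ccl6 was 0.34 and was not called (adjusted p = 0.071).

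Ccl9 was the steadiest of the tested chemokines. Its raw intensity was 20029 to 29988 over the 16 arrays, with a standard deviation of 0.12 log2 units, and 6.39% of the tested probes had a smaller one. Its differences were 0.02 ± 0.06 between mouse numbers (limma, adjusted p = 0.86) and 0.15 ± 0.06 between duplicate numbers (adjusted p = 0.053), with 95% intervals of -0.11 to 0.14 and 0.02 to 0.27. By contrast at least 95.6% of the tested probes varied less than each of Ccl3, Ccl4, Ccl5, Cxcl2 and Cxcl10.

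Ccl22 (macrophage-derived chemokine), a CCR4 ligand typical of dendritic cells and alternatively activated macrophages, read 131 to 166 on the 16 arrays. That is close to the array medians, the probe was detected on 0 of 16 arrays, and no difference was computed.

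**Figure D1:**
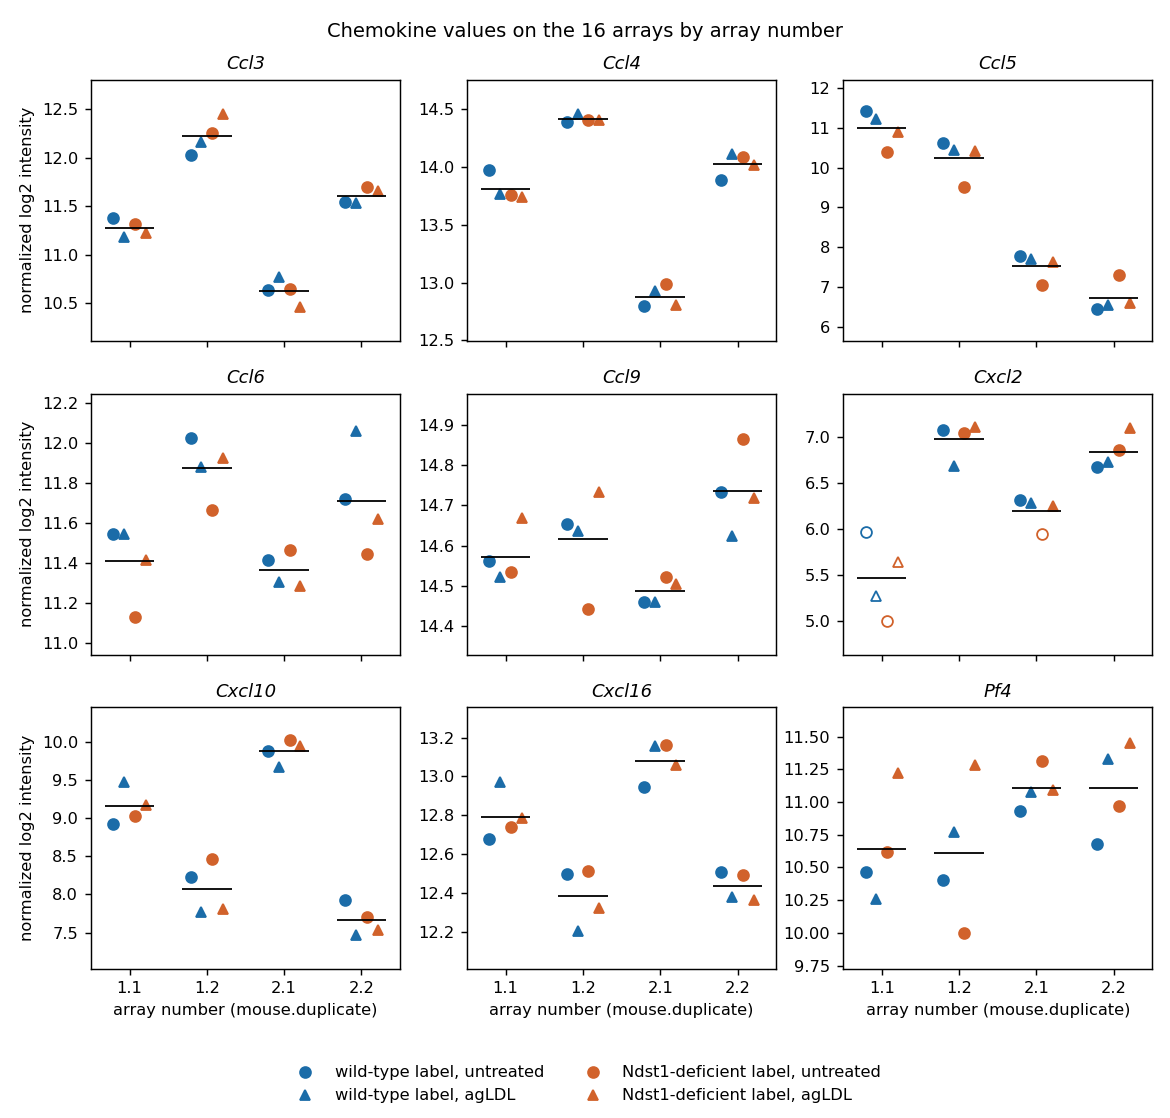
Normalized log2 intensity of the 9 detected chemokines (y axis, scaled per gene) by array number (x axis), with 1 symbol per array coloured by genotype label and shaped by treatment. Open symbols are arrays on which the probe was not detected and bars are means of 4 arrays. Ccl5 separates the mouse numbers, Cxcl10 the duplicate numbers, and Pf4 does not separate by number.

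Cxcl2 (macrophage inflammatory protein 2) binds CXCR2 and attracts neutrophils. Its raw intensity was low, at 149 to 281, and it was detected on 0 of 4 arrays numbered 1.1, 3 of 4 numbered 2.1, and 8 of 8 of duplicate number 2. The 1.1 arrays read 186 and 157 for the wild-type label without and with agLDL, and 149 and 178 for the Ndst1-deficient label, and the 1.2 arrays 260, 232, 281 and 274. The 2.1 arrays read 218, 196, 187 and 191 in that order and the 2.2 arrays 225, 237, 240 and 258, so that every array of duplicate number 2 lay above every array of duplicate number 1.

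Between duplicate numbers the fitted Cxcl2 difference was 1.08 ± 0.11 log2 units (limma, adjusted p = 3.6e-06, 8 of 8 pairs), and 0.42 without background correction. The probe was detected on 3 of 8 arrays of duplicate number 1, so the fitted size is not a measured fold. Since it was not detected on 1.1, the fold of 1.2 over 1.1 has only a bound, at least 2.15-fold higher. That bound sets the mean of the 1.2 arrays against the dimmest detected signal of each 1.1 array. The mouse-number difference was 0.29 ± 0.11 and just missed the threshold (adjusted p = 0.052, higher in 5 of 8 pairs).

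Cxcl10 (IP-10), an interferon-induced ligand of CXCR3 on T and NK cells, showed the opposite pattern. Its raw intensity on the 1.1 arrays was 591 and 785 for the wild-type label without and with agLDL, and 585 and 712 for the Ndst1-deficient label. The 1.2 arrays read 421, 353, 550 and 361, the 2.1 arrays 1170, 878, 1143 and 1014, and the 2.2 arrays 365, 311, 330 and 304. All 8 arrays of duplicate number 1 lay above all 8 of duplicate number 2, by -1.65 ± 0.11 log2 units in the sense 2 minus 1 (limma, adjusted p = 2e-07, 8 of 8 pairs). The mouse-number difference was 0.16 ± 0.11 (adjusted p = 0.33), made of opposite signs. For duplicate number 1, mouse 2 was 0.73 ± 0.16 higher (limma, adjusted p = 0.0077, 4 of 4 groups), and for duplicate number 2 the difference was -0.41 ± 0.16 (adjusted p = 0.1, lower in 4 of 4 groups).

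The difference of those differences was -1.14 ± 0.23 for Cxcl10 and was not called (limma, adjusted p = 0.092). The same interaction was -0.87 ± 0.21 for Cxcl2 (limma, adjusted p = 0.21) and 0.54 ± 0.12 for Ccl4 (adjusted p = 0.14). Cxcl2 was detected on 0 of 4 arrays numbered 1.1, so its interaction rests in part on values near background. No chemokine was called in this test, in which 0.0782% of all tested probes were, and 3 of 9 had an unadjusted p under 0.05, against 815 of 10224 probes. Without background correction Ccl4 (0.53, adjusted p = 0.034) and Cxcl10 (-0.89, adjusted p = 0.019) were called, and Cxcl10 also without the 1.1 array of the wild-type label with agLDL (-1.32, adjusted p = 0.021).

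Cxcl16 is made as a transmembrane protein that binds CXCR6 and, on macrophages, takes up phosphatidylserine and oxidized lipoproteins. Raw intensity was 6628 to 7802 for 1.1, 5033 to 6260 for 1.2, 8130 to 9378 for 2.1 and 5206 to 5903 for 2.2. The 8 arrays of duplicate number 1 lay above the 8 of duplicate number 2, as for Cxcl10, and the difference was -0.53 ± 0.07 (limma, adjusted p = 3.6e-05, 8 of 8 pairs). Between mouse numbers it was 0.17 ± 0.07 (adjusted p = 0.078, higher in 7 of 8 pairs). Cxcl16 and Cxcl10 had a Pearson correlation of 0.95 over the 16 arrays, and of 0.80 after group and number means were removed. Cxcl16 ran against Ccl4 (-0.89) and Ccl3 (-0.89) over the same arrays.

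In all, 4 of the 9 chemokines (Ccl3, Cxcl2, Cxcl10 and Cxcl16) had duplicate-number arrays that did not overlap, against 9.58% of the tested probes. Cxcl2 passed the detection filter only through arrays of duplicate number 2, so its place in that count adds no support. The array number accounted for 98.1% of the variance of Ccl4, 96.6% of Ccl3, 96.0% of Ccl5, 94.6% of Cxcl10, 88.8% of Cxcl16 and 87.2% of Cxcl2. The median over all tested probes was 49.7%.

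Pf4 (platelet factor 4, CXCL4), a chemokine that binds heparin and heparan sulfate strongly and is best known from platelets, differed from the rest. Its raw intensity on the 1.1 arrays was 1489 and 1269 for the wild-type label without and with agLDL, and 1566 and 2610 for the Ndst1-deficient label. The 1.2 arrays read 1481, 1906, 1299 and 2691, the 2.1 arrays 2282, 2171, 2659 and 2133, and the 2.2 arrays 1729, 2779, 2115 and 2914. Values of the mouse numbers overlapped, and in 3 of the 4 numbers the Ndst1-deficient array with agLDL stood highest.

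Pf4 was 0.48 ± 0.14 log2 units higher with mouse number 2 (limma, adjusted p = 0.018, 7 of 8 pairs) and differed by -0.01 ± 0.14 between duplicate numbers (adjusted p = 0.96). Within the slide of the Ndst1-deficient label the mouse-number difference was 0.43 and was not called (adjusted p = 0.28). Array number held 33.1% of its variance and the 4 groups 34.2%, and agLDL alone held 21.6%, where the median probe had 2.30% for agLDL. Of the platelet and megakaryocyte markers, Itga2b, Gp9 and Gp1bb were detected on no array, Ppbp on 2 and Treml1 on 15. Treml1 was also higher with mouse number 2, by 0.43 ± 0.11 (limma, adjusted p = 0.0074). The summed raw intensity of the 5 markers was 729 to 825 for mouse number 1 and 751 to 851 for mouse number 2. Array medians were 148 to 161 and 3 of the 5 were detected on no array, so that sum lies near background. The part of these markers in the Pf4 difference was not tested.

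**Figure D2:**
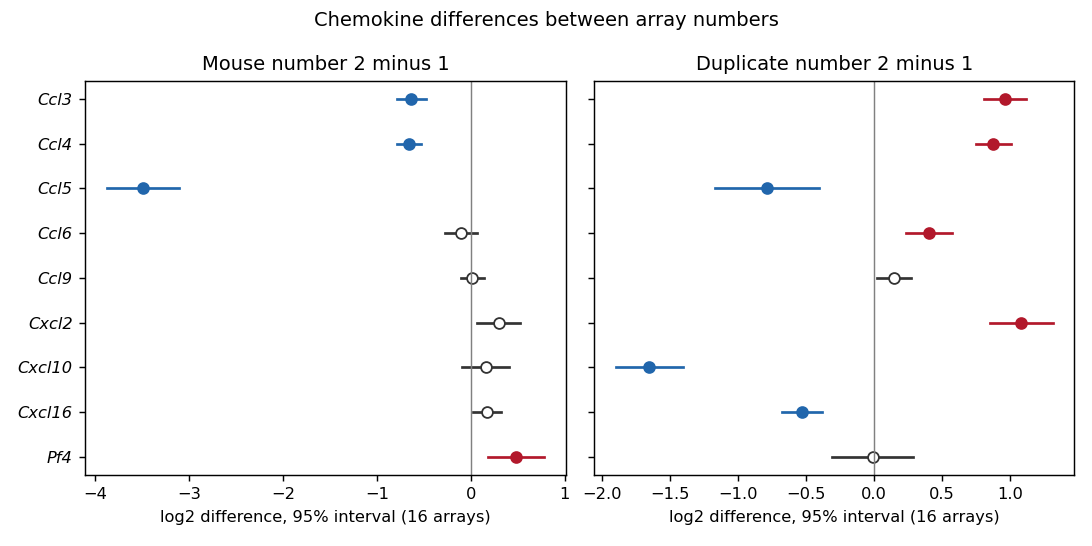
Log2 differences of the 9 tested chemokines (x axis, points with 95% intervals from the limma fit to 16 arrays) between mouse numbers and between duplicate numbers. Filled points passed the adjusted p threshold, red for higher and blue for lower with number 2, and open points did not. Ccl5 stands farthest from 0 for the mouse number and Cxcl10 for the duplicate number.

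The study's own question was what agLDL loading and loss of Ndst1 do to macrophage expression. It was tested on 8 values, each the average of a mouse's duplicate arrays in a group, with 2 mice per group and 4 residual degrees of freedom. No chemokine of the 9 was called in any of the 4 comparisons or in their interaction, and 0% of the 10224 probes were called in each. Probes with an unadjusted limma p under 0.05 numbered 78 and 314 for agLDL (wild-type and Ndst1-deficient label), 512 and 272 for the genotype label (untreated and with agLDL) and 115 for the interaction, where 511 would be reached by chance. None of the 9 chemokines was among them in any of the 5 tests. With the array number as a replicate block on all 16 arrays, no chemokine was called either, while 0, 1, 27, 1 and 0 probes of the whole table were. That paired fit gives the errors and unadjusted p-values of the next paragraphs. It counts the duplicate arrays of a mouse as separate values, though each group has 2 mice. For the genotype label it also pairs different animals. Its p-values thus measure the spread between arrays and not between mice. In it 1 of 9 chemokines had an unadjusted p under 0.05 in each of 3 of the 5 tests. Over 9 chemokines and 5 tests some such values would be reached by chance, and the share over all probes is not given here.

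With agLDL the 9 differences ranged from -0.27 to 0.24 for the wild-type label and from -0.19 to 0.54 for the Ndst1-deficient label. Pf4 had the most positive value in both, at 0.24 ± 0.20 for the wild-type label and 0.54 ± 0.20 for the Ndst1-deficient label. In the Ndst1-deficient cells it was higher with agLDL in 3 of 4 array pairs, by up to 1.29, and lower in the 2.1 pair, by -0.22 (limma, unadjusted p = 0.016, adjusted p = 0.44). The unpaired fit on averaged values gave the same 0.54 with an error of 0.32. Pf4 was higher with agLDL in 3 of 4 pairs of the wild-type label as well, and the interaction was 0.30 ± 0.28 (unadjusted p = 0.30).

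The agLDL differences of Cxcl2 had opposite signs, -0.27 ± 0.15 for the wild-type label and 0.31 ± 0.15 for the Ndst1-deficient label, where it was higher in 4 of 4 pairs. The interaction was 0.58 ± 0.21, positive for 4 of 4 numbers (limma, unadjusted p = 0.018, adjusted p = 1), and the probe lies near the detection limit. Ccl3, the leading Ccl4 probe and Ccl9 differed by at most 0.07 between arrays with and without agLDL in either genotype. Their 95% intervals in the paired fit lay within -0.25 and 0.24. In the unpaired fit on averaged values the errors were 0.36 for Ccl3, 0.37 for Ccl4 and 0.12 for Ccl9. The second Ccl4 probe differed by 0.15 and 0.20 for the wild-type and the Ndst1-deficient label and was not called in either. Cxcl10 differed by -0.15 ± 0.16 and -0.19 ± 0.16 and Cxcl16 by 0.02 ± 0.10 and -0.10 ± 0.10, for the wild-type and the Ndst1-deficient label.

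Between genotype labels without agLDL, Ccl6 differed by -0.25 ± 0.11, Ndst1-deficient minus wild-type, and was lower in 3 of 4 pairs (limma, unadjusted p = 0.041, adjusted p = 0.32). Ccl5 differed by -0.50 ± 0.25 (adjusted p = 0.40): the differences of the numbers 1.1, 1.2 and 2.1 lay between -1.11 and -0.73, and that of 2.2 was 0.86. Leaving out the untreated Ndst1-deficient array numbered 2.2 removed the only pair of the other sign. The Ccl5 difference was then -0.89 and was called in the paired fit (limma, adjusted p = 0.011). Which array to leave out was chosen after seeing the data, so that call adds no support. On averaged values, with the mouse as the replicate, the Ccl5 difference of -0.50 had an error of 1.89. The Ccl6 difference of -0.25 had an error of 0.13 there. With agLDL the Ccl5 difference between labels was -0.09 ± 0.25, and its interaction was 0.41 ± 0.35 (unadjusted p = 0.27). The other differences between labels ranged from -0.30 (Cxcl2) to 0.11 (Pf4) without agLDL, and from -0.14 (Ccl6) to 0.41 (Pf4) with it.

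**Figure D3:**
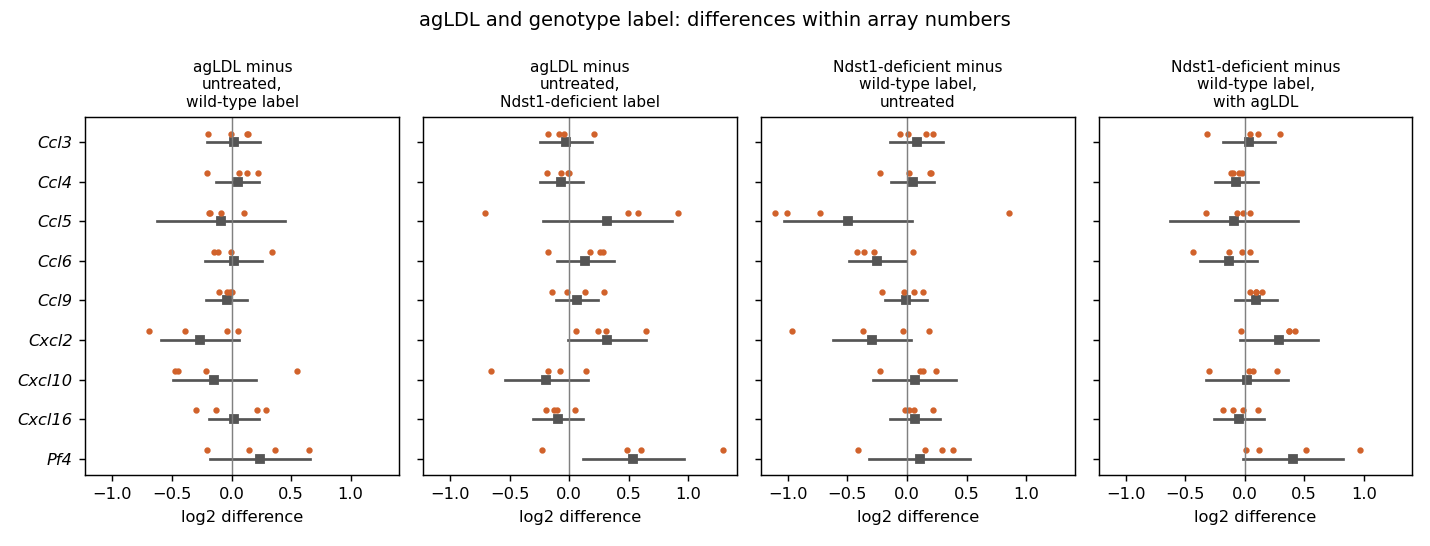
Differences of the 9 chemokines (x axis, log2) for agLDL in each genotype label and for the genotype label in each treatment. Squares with lines are estimates and 95% intervals of the paired limma fit to 16 arrays, and dots are the 4 differences between arrays of the same number. Most intervals include 0, and the dots of Ccl5 without agLDL split into 3 below 0 and 1 above.

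**Figure D4:**
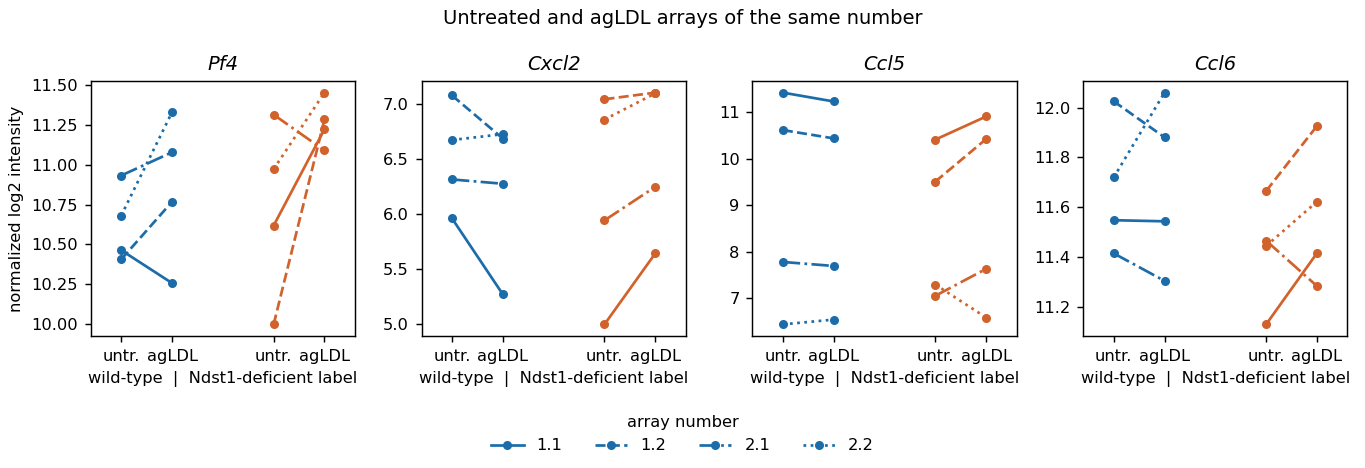
Normalized log2 intensity of Pf4, Cxcl2, Ccl5 and Ccl6 (y axis) on untreated and agLDL arrays of the same number, joined by a line whose style gives the number, for the wild-type (blue) and the Ndst1-deficient label (orange). Pf4 is higher with agLDL on 3 of 4 lines in each label, and Cxcl2 on 4 of 4 lines of the Ndst1-deficient label.

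Other genes of chemokine signalling were counted in the same fits. The 4 chemokines that bind CCR2 (Ccl2, Ccl7, Ccl8 and Ccl12) draw monocytes. Ccl8 differed by -3.61 ± 0.12 between mouse numbers (limma, adjusted p = 5.3e-10), a size near that of Ccl5, and Ccl12 by -2.65 ± 0.12 (adjusted p = 5e-09), and both were detected on all 16 arrays. Ccl7 was lower with mouse number 2 as well, but it was detected there on 3 of 8 arrays, against 8 of 8 for mouse number 1. Ccl2 was detected only on the 4 arrays numbered 1.2, through which it passed the filter, so its calls are fixed by that choice. Between duplicate numbers Ccl8 was lower with number 2 (-0.48 ± 0.12). Ccl12 had no single direction: its mean was 8.72 on 1.1 and 9.92 on 1.2, but 6.85 on 2.1 and 6.48 on 2.2, an interaction of -1.58 ± 0.23 that was called (limma, adjusted p = 0.018). Of 22 further chemokines, 15 were detected on no array and 4 were tested. Ccl27a was called between mouse numbers (0.66 ± 0.07, adjusted p = 1.8e-05) and between duplicate numbers (-0.84 ± 0.07). Cxcl14 (1.11 ± 0.11) and Cxcl1 (0.66 ± 0.13, limma, adjusted p = 0.0011), a CXCR2 ligand like Cxcl2, were higher with duplicate number 2. Cxcl1 was detected on 5 of 8 arrays of duplicate number 1, with 1 of 4 numbered 1.1, and on 8 of 8 of duplicate number 2.

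Of 23 chemokine receptors, 17 were detected on no array, among them Ccr1, Ccr2, Cxcr2 and Cxcr6, and 5 were tested. With mouse number 2, Cxcr4, Cx3cr1 and Ccr3 were higher and Ccrl2 was lower, and with duplicate number 2, 4 were lower. Cxcr4, the receptor of Cxcl12, differed by 1.13 ± 0.11 between mouse numbers (limma, adjusted p = 6.1e-06) and by -0.37 ± 0.11 between duplicate numbers (adjusted p = 0.014). Cx3cr1, the receptor of fractalkine, was detected on 7 of 8 arrays of duplicate number 1 and on 0 of 8 of duplicate number 2, so its call there follows from the filter. Cxcr3, the receptor of Cxcl10, differed by -0.33 ± 0.10 between duplicate numbers (adjusted p = 0.013) and by -0.19 ± 0.10 between mouse numbers (adjusted p = 0.14).

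Of 12 proteases that cleave chemokines, 9 were tested. Between mouse numbers 2 were higher and 3 lower, and between duplicate numbers 5 were higher and 3 lower. Mmp12, the macrophage metalloelastase, was 2.90 ± 0.14 higher with duplicate number 2 (limma, adjusted p = 1.3e-08), and Mmp14 differed by -1.18 ± 0.14 (adjusted p = 1.4e-05). Mmp13 (-1.02 ± 0.07) and Mmp9 (0.83 ± 0.08) differed most between mouse numbers. Adam17, a sheddase that releases membrane-bound ligands, was higher with mouse number 2 (0.32 ± 0.06) and lower with duplicate number 2 (-0.45 ± 0.06, adjusted p = 8.2e-05), and Adam10, Dpp4 and Mmp8 were detected on no array. Of the cathepsins, Ctsk was 1.15 ± 0.12 higher with duplicate number 2 (limma, adjusted p = 7e-06) and differed by 0.07 ± 0.12 between mouse numbers. Ctsl was lower with mouse number 2 (-0.27 ± 0.07, adjusted p = 0.012) and higher with duplicate number 2 (0.20 ± 0.07, adjusted p = 0.031), and Ctss differed by -0.37 ± 0.17 and -0.19 ± 0.17 and was not called. Ctsg was called in both comparisons but was detected on 9 arrays, 0 of 4 numbered 1.1 and 4 of 4 numbered 1.2, and its interaction was called too (adjusted p = 0.039). Of 10 proteoglycans that hold chemokines, 6 were tested. Cd44 was higher with duplicate number 2 (0.84 ± 0.08), Bgn (detected on 8 arrays of mouse number 1 and 1 of mouse number 2) was lower with mouse number 2, and Srgn differed by -0.01 ± 0.13 between duplicate numbers.

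Of 20 NF-kB-inducible genes, 15 were tested. With mouse number 2, 5 were higher and 2 lower, and with duplicate number 2, 2 were higher and 8 lower. One of the 2, Il1a, was detected on 1 of 8 arrays of duplicate number 1 and passed the filter through duplicate number 2. Tnf, tumour necrosis factor, had the pattern of Ccl3 and Ccl4: -0.63 ± 0.10 between mouse numbers (limma, adjusted p = 0.00027) and 0.96 ± 0.10 between duplicate numbers (adjusted p = 3.7e-06). Il1b, interleukin 1 beta, ran the other way, by 0.97 ± 0.23 and -1.73 ± 0.23, as did Ier3, by 0.84 ± 0.10 and -1.22 ± 0.10. Nfkbiz, an inhibitor-like regulator of NF-kB, was lower with duplicate number 2 (-1.15 ± 0.08), in the direction of Cxcl10.

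Of 12 genes of interferon signalling, 9 were tested. Between mouse numbers 1 was higher and 3 lower, and between duplicate numbers 5 were lower and none higher. Irf7 differed by -1.28 ± 0.08 between mouse numbers (limma, adjusted p = 1.7e-07) and Stat2 by -0.93 ± 0.07 (adjusted p = 5.8e-07), both in the direction of Ccl5. Irf1 differed by -0.50 ± 0.07 (adjusted p = 5.8e-05) and Ifngr1, a subunit of the interferon gamma receptor, by -0.48 ± 0.06 between duplicate numbers, both in the direction of Cxcl10. No gene of these 7 lists was called for agLDL, the genotype label or their interaction. These lists were read against 30.9% and 46% of all tested probes called between mouse and duplicate numbers.

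**Figure D5:**
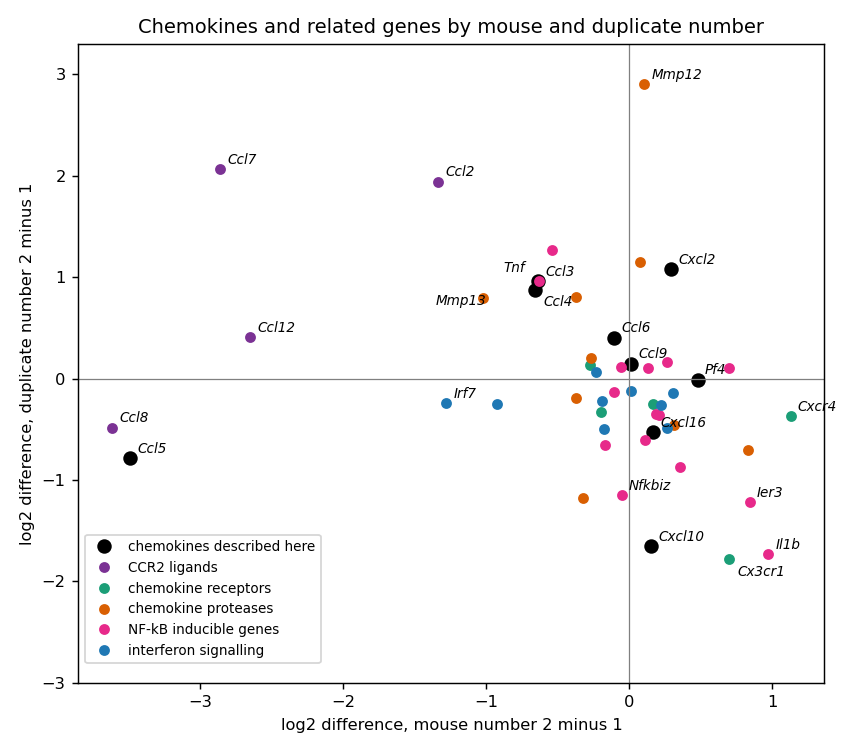
Log2 difference between mouse numbers (x axis) against that between duplicate numbers (y axis) for the 9 tested chemokines (black) and 5 lists of related genes, each point a gene fitted over 16 arrays. Ccl5 lies beside Ccl8, and Ccl3 and Ccl4 beside Tnf. Values of Ccl2, Ccl7, Cxcl2, Cx3cr1, Il1a and Ctsg are fitted against numbers on whose 4 arrays they were not detected.

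The genes whose values ran most like each chemokine over the 16 arrays were searched among 7073 genes, as a description of arrays that share animals, slides and positions. Ccl5 was closest to Rsad2 (Pearson correlation 0.98), an interferon-induced antiviral gene, then to Ccl8 and Phf11a (0.98 and 0.97). Ccl3 was closest to Htr2b (0.98), Flrt2 (0.98) and Ccnd1 (0.98), and Ccl4 to Flrt2 (0.98), Slc7a5 (0.98) and Ccnd1 (0.97), so the pair shared 2 of their 3 nearest genes. Cxcl10 was closest to Ncf4 (0.97), a subunit of the phagocyte oxidase, Serp1 (0.96) and Ifitm2 (0.96), and Cxcl16 to Zfp658 (0.97), Nadk (0.96) and Rgs3 (0.96). Cxcl2 was closest to Gadd45a (0.92), Impdh1 and Slc27a1, Ccl6 to Map7d1 (0.91), Snx12 and Psmb5, and Ccl9 to Pip4k2c (0.89), G3bp1 and Dcun1d2. Pf4 had the least similar neighbours, Taf13 (0.84), Sptssa (0.83) and Anapc13 (0.82).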

How the data were processed

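The deposited table held, per the file headers, a mean bead intensity and a detection p-value for each of 25697 probes on 16 arrays, and neither its background nor its normalization had been adjusted, as the values show. The authors' series-matrix intensities, background-subtracted and on a common distribution (column medians 11.2 to 11.3), served as an alternative. The submitters' processing notes name GenomeStudio. Its settings, and the genome build of the probes, were not given in the sources used here. Probe symbols came from the platform annotation. The targeted gene, Ndst1, was not analysed here.

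With limma 3.58.1 in R 4.3.3, neqc corrected the background by negative-control signals derived from the detection p-values, then an offset of 16 was added and arrays were normalized by quantiles before log2 was taken. Probes with a detection p under 0.01 on at least 4 arrays were kept, 10224 in all. The study's comparisons were fitted on 8 values (duplicates averaged) with the group alone, and number contrasts on 16 arrays. The 24 pairs of arrays that share an array number deviated together (correlations of 0.445 to 0.814), and 16 of 16 arrays correlated best with their own number. Within a genotype a shared mouse number is the same animal per the labels, and across genotypes the pairing comes from the data. The probe detected on most arrays, then the brightest, stood for its gene, and all 10 members are named. Of each list the receptors, the proteases and the 2 genes with the largest differences are named, and a few more were chosen after their values were seen. Fits were tested on simulated data. The members and lists were chosen with earlier results of these data known. Where nothing says that duplicates were separate cultures, p-values measure the spread between samples, which may be technical, and the number of arrays limits the precision.

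Alternatives were the authors' values, no background correction, median scaling, other detection filters, gene-level fits, replicate blocks, the animal as a random effect, single slides and leaving out each array or averaged value.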

Additional observations from a re-analysis of the deposited data

Results flagged for a closer look

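Cxcl10 differed between mouse numbers in opposite directions for the duplicate numbers. The 2.1 arrays were above the 1.1 arrays in 4 of 4 groups and the 2.2 arrays below the 1.2 arrays in 4 of 4 groups, and the difference of the differences was -1.14 log2 units (limma, adjusted p = 0.092), which was not called. No array stood outside its group in the 36 sets of 4 arrays examined for the 9 tested chemokines. Each set held the numbers 1.1, 1.2, 2.1 and 2.2, which differed in level for most of them, so a chance rate of 5% does not apply. The result therefore says little about single arrays.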

How the results depend on the processing

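The 11 called chemokine differences kept their direction under all 24 or 25 alternatives each. Of them, 8 stayed called throughout. One of the 8, Cxcl2 between duplicate numbers, passed the detection filter only through arrays of duplicate number 2, so its place there adds no support. Pf4 between mouse numbers (0.43, limma, adjusted p = 0.28), Ccl5 (-0.55, 0.16) and Ccl6 (0.34, 0.071) between duplicate numbers were not called within the slide of the Ndst1-deficient label. That slide holds 8 of the 16 arrays. Without background correction the Ccl5 mouse-number difference was -2.66 and the Cxcl2 duplicate-number difference 0.42, and over all alternatives they ranged from -3.81 to -2.66 and from 0.42 to 1.32. Leaving out single arrays gave 4 to 5 called chemokines between mouse numbers, 7 to 8 between duplicate numbers and 0 to 1 for their interaction, where 1 was called without the 1.1 array of the wild-type label with agLDL and 2 without background correction. A few differences near the threshold were called under some settings: Cxcl2 between mouse numbers with the authors' values (0.35, adjusted p = 0.0496) and at gene level (0.29, 0.049), Cxcl16 between mouse numbers without background correction (0.17, 0.038), and Ccl9 between duplicate numbers without background correction (0.15, 0.023) and at gene level (0.15, 0.043). Each of them was also called when certain single arrays were left out, Cxcl2 with adjusted p down to 0.0114, Cxcl16 0.0336 and Ccl9 0.00841.

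In the study's own comparisons 0 chemokines and 0 probes were called when any of the 8 averaged values was left out. The replicate block on 16 arrays called 1 probe for agLDL with the Ndst1-deficient label, 27 for the genotype label without agLDL and 1 with it, and 0 chemokines. The paired block with an array left out, chosen after seeing the data, gave 0 to 4, 4 to 62 and 0 to 2 probes, the 4 without the untreated Ndst1-deficient 1.2 array and the 62 without its 2.1 array, and 1 chemokine (Ccl5) for the untreated genotype label without its 2.2 array. Blocking averaged values by mouse number called 1 probe for the untreated genotype label, and the animal as a random effect called 1, 2 and 1. The block changed no other call.

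Over all probes, mouse-number calls fell from 3158 to 1359 and 902 within the slides of the wild-type and Ndst1-deficient label, and duplicate-number calls from 4708 to 2780 and 2425. Interaction calls went from 8 to 5 with the authors' values, 32 without background correction, 0 within either slide and 0 to 29 with an array left out. Median scaling turned the duplicate-number split from 2288 higher and 2420 lower (48.6% higher) to 2645 and 1617 (62.1%). Cxcl2 lies near background, which limits its precision.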
